A study of Mus musculus with 4 samples.

Results

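The 9 genes described here, Brdt, Brd2, Brd3, Chd5, Rnf8, Pygo2, Epc1, Cdyl and Kdm3a, encode chromatin factors that have been tied to the exchange of histones for protamines in spermatids. They were taken from the 55357 features of the count tables by their symbols, and all 9 were present in each library. Single-nucleus RNA-seq of whole testes, with 10x Genomics 3′ chemistry, gave 2 WT and 2 Dhx37-/- libraries from mice of 8 weeks. The labels call the libraries of a genotype biological replicates 1 and 2. Both genotypes were littermates, and the Dhx37-/- mice carried Dhx37 alleles with loxP sites around exon 2 together with an Amh-Cre transgene. Amh-Cre is active in Sertoli cells, the somatic cells that nurse the germ cells, so the germ cell nuclei described below were not themselves the target of the deletion. The counted 3′ ends lie outside the deleted exon, so the level of Dhx37 does not check the labels. It gave 4 and 3 UMIs (unique molecules counted) in the Sertoli nuclei of WT replicates 1 and 2 and 12 and 13 UMIs in those of Dhx37-/- replicates 1 and 2.

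In round spermatids, chromatin is first opened by histone acetylation, variant histones and DNA breaks, and the histones are then replaced by transition proteins and finally by protamines as the nucleus condenses. Brdt, Brd2 and Brd3 are BET proteins, which bind acetylated histones through paired bromodomains, and Brdt is the member known for its restriction to male germ cells. Chd5 is a remodeling ATPase of the CHD family, Epc1 is a scaffold subunit of the NuA4/TIP60 acetyltransferase, and Cdyl is a chromodomain protein that binds methylated histone H3 and lowers histone crotonylation. Rnf8 is a ubiquitin ligase that marks histones around DNA breaks, Pygo2 is a PHD finger protein that also serves as a cofactor of beta-catenin, and Kdm3a is a demethylase of histone H3 lysines.

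The 4 libraries held between 51797891 and 75611263 UMIs and 37048 nuclei in all, with a median of 3303.5 to 4157 UMIs per nucleus. Any pair of libraries shared 19 to 29 nucleus barcodes. Nuclei were placed in classes by the UMIs of a few marker genes, none of which was one of the 9 genes, and 15509 nuclei (41.9%) could be placed. The 9 germ classes carry the names of their gates, in the order spermatogonia, early prophase, Wee2/Pls1 spermatocyte, Cadm2/Spef2, Rad51b/Pdgfc spermatid, Foxp2/Cntn3 spermatid, Kcnb2/Dscaml1 spermatid, Fmo5/Ppm1l spermatid and Ung low-RNA spermatid. The order of the Rad51b/Pdgfc and Foxp2/Cntn3 classes was not set by the data. Elongating spermatid markers that were not used for the gates rose from 17419 CPM (the UMIs of a gene scaled to the total UMIs of the class) in Kcnb2/Dscaml1 nuclei through 23026 CPM in Fmo5/Ppm1l nuclei to 30075 CPM in Ung low-RNA nuclei. Tnp1, Tnp2, Prm1 and Prm2 of this list also served to estimate free RNA, that of droplets without a nucleus, in somatic classes. The part of free RNA in this rise was not tested. The spermatogonia gate held 372 CPM of its own check markers, against 17.2 to 62.5 CPM in the other germ classes and 884 CPM in Leydig nuclei. These 5 genes were left after check markers found together with Stra8 had gone to the gate, so their sum does not measure purity. The gate also held as much early prophase marker RNA (3742 CPM) as the early prophase gate itself (3173 CPM). For this reason it is called by its gate and not taken as a pure class. The endothelial gate likewise carried 1203 CPM of round spermatid markers. Early prophase nuclei numbered 38 and 45 in the WT libraries against 153 and 356 in the Dhx37-/- libraries, so the WT sums of that class rest on 129784 and 156215 UMIs against 743106 and 1837981.

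Levels across germ cells followed several distinct courses. Brdt and Kdm3a were highest in the meiotic classes, and Rnf8 was highest in Wee2/Pls1 spermatocytes and below the level of free RNA in spermatids. Chd5 and Cdyl were low in spermatocytes and high in spermatids. Epc1 was high in Wee2/Pls1 spermatocytes, low from Cadm2/Spef2 nuclei through the round spermatid classes and high again in the later spermatids. Over all nuclei Cdyl gave 118128 UMIs and Chd5 74428 UMIs, whereas Brd2, Kdm3a, Brdt, Brd3 and Epc1 gave between 14195 and 22563 UMIs, Rnf8 gave 2622 and Pygo2 gave 1341. Levels of different genes were not ranked against each other, because counts of 3′ ends depend on where each transcript is primed. Changes between classes were tested with edgeR on the summed UMIs of each library and class, with the library as a block. These folds use TMM scaling, which rescales the total of each sum, so a fitted fold can differ from the ratio of 2 CPM values.

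**Figure D1:**
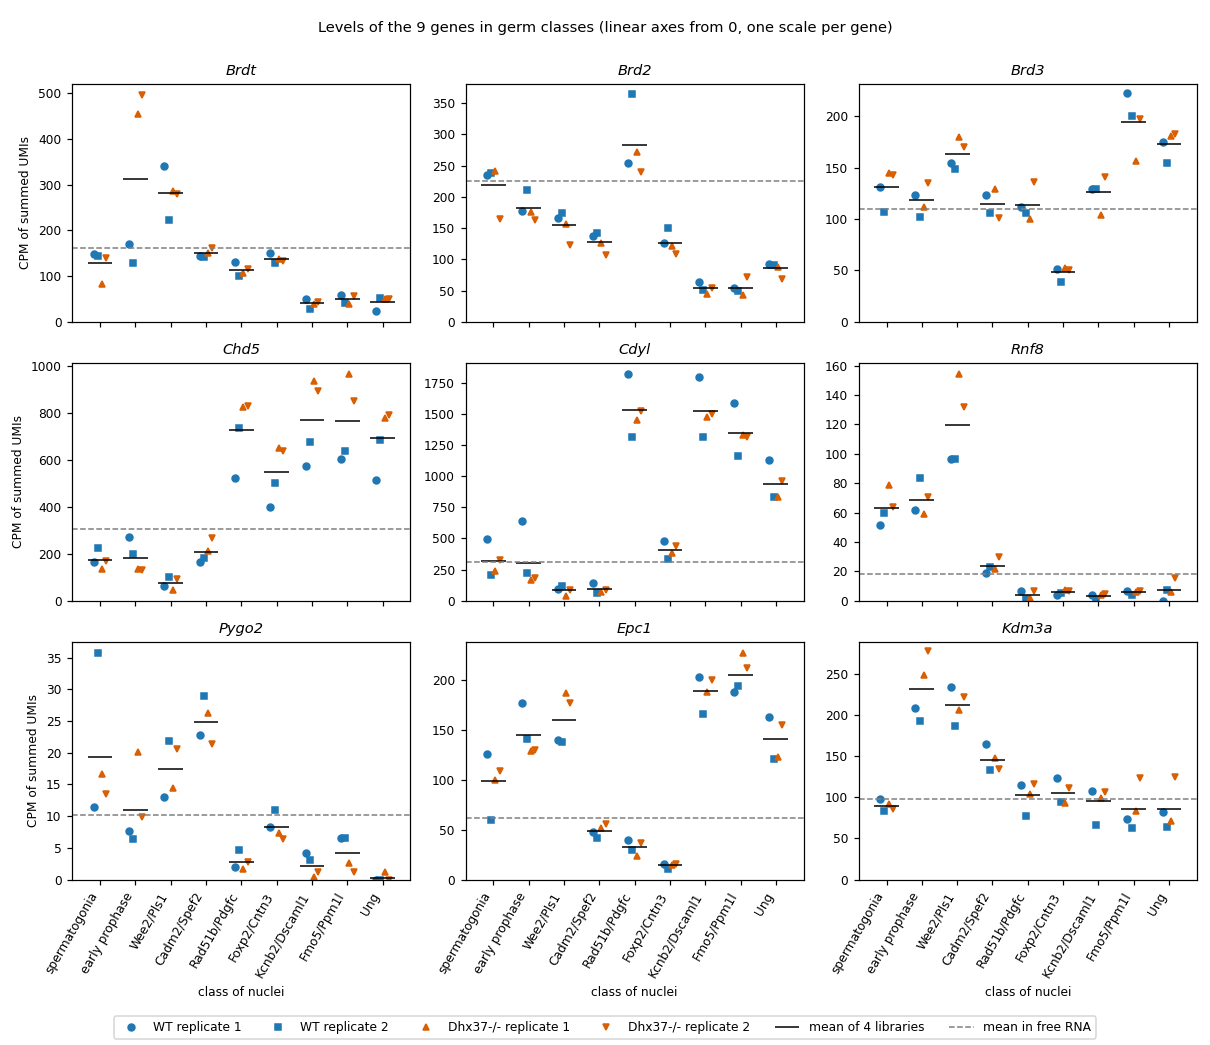
CPM of each of the 9 genes (vertical axes, linear from 0) in the 9 germ classes in gate order (horizontal axis), with 1 point per library coloured by genotype, a bar at the mean of the 4 libraries and a dashed line at the mean of free RNA. Chd5 and Cdyl are high in most spermatid classes, Rnf8 falls away after the Wee2/Pls1 spermatocytes, and Epc1 is low from Cadm2/Spef2 to Foxp2/Cntn3 nuclei.

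Of 72 tests of a member between adjacent germ classes, 32 passed an adjusted p of 0.05. From spermatogonia to early prophase 2 of the 9 members changed, where 19.9% of the 18705 genes tested did. Of the 9 members, 5 changed from early prophase to Wee2/Pls1 spermatocytes (41.8% of all genes), 5 from there to Cadm2/Spef2 nuclei (50% of all genes), 5 from there to Rad51b/Pdgfc spermatids (63.7%), 5 from there to Foxp2/Cntn3 spermatids (39.3%) and 7 from there to Kcnb2/Dscaml1 spermatids (65.8%). No member changed from Kcnb2/Dscaml1 to Fmo5/Ppm1l spermatids by edgeR (2 had an unadjusted p under 0.05, Cdyl and Kdm3a, and DESeq2 called 1), where 10.2% of all genes did, and 3 changed from there to Ung low-RNA spermatids, where 9.71% did. The members' counts are small numbers beside these shares, and the members differed from each other in the step at which each one moved. Scaling bore on some of these steps. Among called genes, 53.4% were higher in early prophase than in spermatogonia under TMM, 33.5% under DESeq2 size factors and 44.6% with totals alone. From early prophase to Wee2/Pls1 spermatocytes these shares were 56.8%, 55.5% and 43.6%, and from there to Cadm2/Spef2 nuclei they were 55.2%, 44.6% and 42.5%. The late steps were the least settled, with 9.55%, 56.1% and 62.7% from Kcnb2/Dscaml1 to Fmo5/Ppm1l spermatids and 3.91%, 12.7% and 64.5% from there to Ung low-RNA spermatids. The median log2 fold of all genes moved with the scaling by more than 0.1 in 7 of the 8 steps, for example from -0.07 under TMM to -0.38 with totals alone from Cadm2/Spef2 to Rad51b/Pdgfc nuclei, and from -0.26 to 0.09 from Kcnb2/Dscaml1 to Fmo5/Ppm1l spermatids. With the 2 round spermatid classes in the other order, 51.9% of all genes differed from Cadm2/Spef2 to Foxp2/Cntn3 nuclei and 55.6% from Rad51b/Pdgfc to Kcnb2/Dscaml1 spermatids, and the share of called genes that was higher at the first of these was 46.7%, 43.0% and 34.5% under the 3 scalings. No called step of a member changed direction under another scaling, and the calls lost under one are named with each gene.

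**Figure D2:**
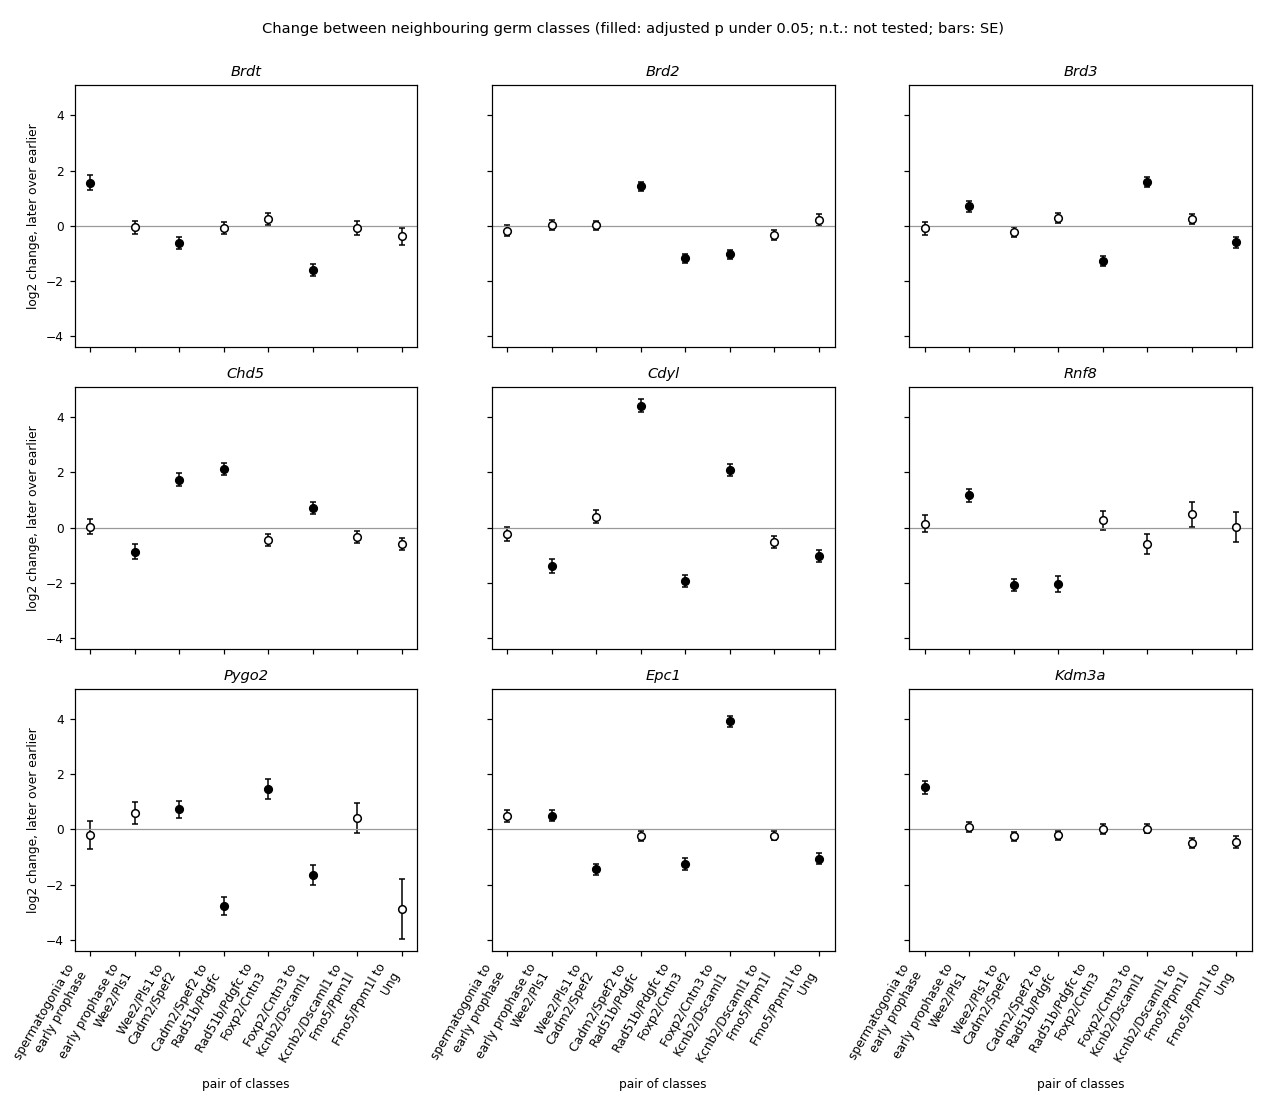
Fitted log2 change of each member (vertical axes, later over earlier class, TMM scaling) for each pair of adjacent germ classes (horizontal axis), with bars of 1 SE and filled points where the adjusted p is under 0.05. The largest fitted steps are the rise of Cdyl by 4.42 from Cadm2/Spef2 to Rad51b/Pdgfc nuclei and the rise of Epc1 by 3.92 from Foxp2/Cntn3 to Kcnb2/Dscaml1 spermatids.

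Brdt (ENSMUSG00000029279), which is needed for histone removal and for the meiotic programme, was, among germ classes, lowest in the late spermatids and highest in meiotic prophase. In Wee2/Pls1 spermatocytes its level was 340.0 and 223 CPM in WT replicates 1 and 2 and 285 and 279 CPM in Dhx37-/- replicates 1 and 2, with a mean of 282 CPM ± 47.8 (SD, n = 4). In Kcnb2/Dscaml1 spermatids it was 50.6, 28.1, 38.3 and 43.2 CPM across the libraries in that order, a mean of 40.05 CPM ± 9.43. Every library was therefore several times lower in these spermatids than in its own spermatocytes. In the fit over both genotypes Brdt rose from spermatogonia to early prophase by 1.56 log2 units (SE 0.27, adjusted p 1.18e-05). Mean levels at this step went from 146 to 149 CPM in WT libraries and from 111 to 475 CPM in Dhx37-/- libraries. Brdt fell by 0.62 from Wee2/Pls1 to Cadm2/Spef2 nuclei (SE 0.22, adjusted p 0.0155) and by 1.60 from Foxp2/Cntn3 to Kcnb2/Dscaml1 spermatids (SE 0.23, adjusted p 4.92e-09). Between the falls lay a plateau, with 149 CPM ± 8.72 in Cadm2/Spef2, 113 CPM ± 12.9 in Rad51b/Pdgfc and 137 CPM ± 9.96 in Foxp2/Cntn3 nuclei. The fall from Wee2/Pls1 to Cadm2/Spef2 nuclei was lost when doublets were removed and when any library except WT replicate 2 was left out.

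In somatic classes Brdt was low but not at 0, at 31.1 CPM ± 9.76 in Sertoli, 44.8 CPM ± 15.9 in Leydig and 72.3 CPM ± 19.8 in macrophage nuclei. The free RNA of the droplets without a nucleus held 162 CPM ± 34.3 of Brdt. Between 39.8% and 54.0% of the Brdt UMIs in a somatic class were ascribed to free RNA on average over the libraries. This estimate takes all Tnp1, Tnp2, Prm1 and Prm2 UMIs of somatic nuclei as free RNA. Single libraries varied, for example from 21.5% to 87.7% in macrophage nuclei. Sertoli cells are not known to express Brdt and serve as the comparison. After each nucleus was thinned to 1000 UMIs, 2.77% ± 1.91 of Sertoli nuclei held a Brdt UMI against 26.4% ± 3.68 of Wee2/Pls1 spermatocytes and 3.52% ± 0.78 of Kcnb2/Dscaml1 spermatids (SD, n = 4). Without thinning the shares were 22.1%, 69.8% and 13.3%, at median depths of 7758 to 9018.5, 4092 to 6693 and 3287.5 to 4097.5 UMIs per nucleus. After thinning, the share of Kcnb2/Dscaml1 spermatids was thus near that of Sertoli nuclei. In Fmo5/Ppm1l and Ung low-RNA spermatids the thinned shares were 5.71% ± 1.71 and 3.90% ± 2.78. The part of free RNA in these germ classes was not estimated. Thinning left out 0 Wee2/Pls1, 3 Sertoli and 3 Kcnb2/Dscaml1 nuclei.

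Brd2 (ENSMUSG00000024335), a broadly expressed BET reader, had its highest level in Rad51b/Pdgfc spermatids. There it measured 255 and 365 CPM in WT and 272 and 239 CPM in Dhx37-/- samples. In Kcnb2/Dscaml1 spermatids the same libraries gave 63.5, 50.8, 45.0 and 54.5 CPM. Brd2 rose by 1.43 log2 units from Cadm2/Spef2 to Rad51b/Pdgfc nuclei (SE 0.17, adjusted p 8.56e-12), fell by 1.18 to Foxp2/Cntn3 spermatids (SE 0.16) and fell by 1.04 more to Kcnb2/Dscaml1 spermatids (SE 0.17). With the 2 round spermatid classes in the other order, Brd2 did not change from Cadm2/Spef2 to Foxp2/Cntn3 nuclei past the threshold (0.25, SE 0.16), rose by 1.18 to Rad51b/Pdgfc spermatids and fell by 2.22 to Kcnb2/Dscaml1 spermatids (SE 0.17), so the peak in Rad51b/Pdgfc spermatids held in either order.

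Brd3 (ENSMUSG00000026918), another BET reader, differed from Brd2 in where its low and high spermatid classes lay. It was low in Foxp2/Cntn3 spermatids, at 51.1, 39.0, 52.3 and 50.3 CPM, and highest in Fmo5/Ppm1l spermatids, at 222, 201, 156 and 197 CPM. The WT and Dhx37-/- libraries overlapped in the first class, and in the second the Dhx37-/- libraries were the lower pair, as for 17.1% of all genes. In the fit Brd3 rose by 0.70 from early prophase to Wee2/Pls1 spermatocytes (SE 0.20), fell by 1.28 from Rad51b/Pdgfc to Foxp2/Cntn3 spermatids (SE 0.18) and rose by 1.59 from there to Kcnb2/Dscaml1 spermatids (SE 0.18, adjusted p 7.49e-12). Its fall by 0.59 from Fmo5/Ppm1l to Ung low-RNA spermatids (SE 0.20, adjusted p 0.0428) came to 0.14 with totals alone and did not pass there, nor under DESeq2 size factors, in DESeq2, without a filter on low counts, without the upper limit on genes, with doublets removed or when any library except Dhx37-/- replicate 1 was left out. Brd3 was present in somatic nuclei too, at 128 CPM ± 29.1 in Sertoli and 119 CPM ± 29.3 in Leydig nuclei, of which 6.97% and 11.1% were ascribed to free RNA.

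Chd5 (ENSMUSG00000005045), the remodeling ATPase, was low in spermatocytes and high in every spermatid class. In Wee2/Pls1 spermatocytes it measured 61.3, 99.8, 47.2 and 94.1 CPM, and in Rad51b/Pdgfc spermatids 523, 734, 825 and 830.3 CPM. Every library of this spermatid class thus lay above every library of the spermatocytes. Chd5 fell by 0.87 from early prophase to Wee2/Pls1 spermatocytes (SE 0.27), rose by 1.74 to Cadm2/Spef2 nuclei (SE 0.25), rose by 2.12 to Rad51b/Pdgfc spermatids (SE 0.23, adjusted p 5.30e-13) and was higher by 0.70 in Kcnb2/Dscaml1 than in Foxp2/Cntn3 spermatids (SE 0.22, adjusted p 0.00329). The fall into Wee2/Pls1 spermatocytes was lost without WT replicate 1 (-0.59), and the last rise fell to 0.24 without a filter on low counts and to 0.27 without the upper limit on genes per nucleus, and was lost in both. No later step of Chd5 passed, with levels of 770.3 CPM ± 173 in Kcnb2/Dscaml1, 764 CPM ± 174 in Fmo5/Ppm1l and 691 CPM ± 128 in Ung low-RNA spermatids.

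Much of the Chd5 in Sertoli and Leydig nuclei was ascribed to free RNA. Chd5 measured 44.0 CPM ± 11.9 in Sertoli and 56.8 CPM ± 19.8 in Leydig nuclei, and free RNA, which held 305 CPM ± 72.9 of Chd5, was ascribed 57.4% and 66.1% of these. After thinning, 3.31% ± 3.17 of Sertoli nuclei held a Chd5 UMI against 51.4% ± 7.2 of Kcnb2/Dscaml1 spermatids. The endothelial gate was the exception, with 246, 493, 358 and 832 CPM, and that gate also held the round spermatid markers given above; their part in its Chd5 level was not tested.

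Cdyl (ENSMUSG00000059288), the chromodomain protein, took the largest fitted step of the 9 genes. It measured 139, 64.1, 67.7 and 89.2 CPM in Cadm2/Spef2 nuclei and 1822, 1318, 1450.1 and 1526 CPM in Rad51b/Pdgfc spermatids, a fitted rise of 4.42 log2 units (SE 0.24, adjusted p 4.55e-25). It was lower in Foxp2/Cntn3 spermatids, at 476, 338, 382 and 438 CPM, by 1.93 (SE 0.22), and higher again in Kcnb2/Dscaml1 spermatids, at 1795, 1311, 1474 and 1502 CPM, by 2.10 (SE 0.22). All 4 libraries showed both steps, and WT replicate 1 was the highest library in each of these classes. With the 2 round spermatid classes in the other order, Cdyl rose by 2.49 from Cadm2/Spef2 to Foxp2/Cntn3 nuclei (SE 0.23), rose by 1.93 to Rad51b/Pdgfc spermatids and differed by 0.17 between these and Kcnb2/Dscaml1 spermatids (SE 0.21, adjusted p 0.525), with no dip between them. The dip of Cdyl therefore depends on the order of these 2 classes. Cdyl also fell by 1.39 from early prophase to Wee2/Pls1 spermatocytes (SE 0.25) and by 1.02 from Fmo5/Ppm1l to Ung low-RNA spermatids (SE 0.22, adjusted p 0.000711), the latter being 0.52 and lost with totals alone.

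Little of the Cdyl in Sertoli nuclei was ascribed to free RNA. They held 527 and 491 CPM in WT and 379.9 and 410.1 CPM in Dhx37-/- samples, and free RNA accounted for 5.44% on average. After thinning, 31.0% ± 3.06 of Sertoli nuclei held a Cdyl UMI, against 11.3% ± 3.94 of Leydig nuclei and 75.2% ± 4.57 of Rad51b/Pdgfc spermatids; without thinning these were 89.8%, 39.8% and 95.8%. Leydig nuclei measured 139 CPM ± 34, macrophage nuclei 284 CPM ± 66.4 and fibroblast nuclei 293 CPM ± 55.3. Endothelial nuclei were higher than Sertoli nuclei, at 677 CPM on average. That gate also held round spermatid markers, and their part in its Cdyl level was not tested.

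Rnf8 (ENSMUSG00000090083), the ubiquitin ligase that acts at DNA breaks and on the sex chromosomes in meiosis, had its highest level in spermatocytes. In Wee2/Pls1 spermatocytes it measured 96.6 and 96.2 CPM in WT and 154 and 132 CPM in Dhx37-/- samples. In Rad51b/Pdgfc spermatids 20, 2, 2 and 25 UMIs remained, or 6.47, 0.855, 1.69 and 6.78 CPM. Rnf8 rose by 1.16 from early prophase to Wee2/Pls1 spermatocytes (SE 0.25, adjusted p 0.000128), fell by 2.08 to Cadm2/Spef2 nuclei (SE 0.23) and fell by 2.03 more to Rad51b/Pdgfc spermatids (SE 0.29). Mean levels in the 5 spermatid classes lay between 3.16 and 7.05 CPM, below the 18.2 CPM ± 4.11 of free RNA. The share of free RNA was not estimated for germ classes, so these levels do not tell whether spermatids transcribed Rnf8. Somatic nuclei held 33.5 CPM ± 8.99 in the Sertoli class and between 13.3 and 23.9 CPM in the other somatic classes except T cells.

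Pygo2 (ENSMUSG00000047824) was sparse throughout, and its small counts limit every statement on it. It was highest in Cadm2/Spef2 nuclei, with 59, 74, 76 and 47 UMIs or 22.8, 28.9, 26.3 and 21.4 CPM. In Rad51b/Pdgfc spermatids 6, 11, 2 and 10 UMIs were found, and in Ung low-RNA spermatids 1 UMI in all. It fell by 2.77 from Cadm2/Spef2 to Rad51b/Pdgfc nuclei (SE 0.33, adjusted p 2.26e-11), rose by 1.46 to Foxp2/Cntn3 spermatids (SE 0.37) and fell by 1.65 to Kcnb2/Dscaml1 spermatids (SE 0.37). A rise by 0.73 from Wee2/Pls1 to Cadm2/Spef2 nuclei (SE 0.30, adjusted p 0.0351) was lost under either other scaling, in DESeq2, without a filter on low counts, without the upper limit on genes and when any library except Dhx37-/- replicate 2 was left out. The mean level of free RNA, 10.1 CPM ± 2.03, was above the level of every spermatid class.

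Epc1 (ENSMUSG00000024240), the NuA4/TIP60 subunit that takes part in the wave of histone acetylation before histone removal, was low from Cadm2/Spef2 nuclei through the round spermatid classes. It was high on either side of these classes. It measured 139, 138, 187 and 176 CPM in Wee2/Pls1 spermatocytes, 15.6, 10.7, 15.02 and 16.03 CPM in Foxp2/Cntn3 spermatids and 203, 166, 188 and 199.7 CPM in Kcnb2/Dscaml1 spermatids. The libraries of the Foxp2/Cntn3 class did not overlap those of either high class. Cadm2/Spef2 nuclei, at 49.0 CPM on average, did not differ from Rad51b/Pdgfc spermatids past the threshold (-0.24, SE 0.19). Epc1 fell by 1.45 from Wee2/Pls1 to Cadm2/Spef2 nuclei (SE 0.19), fell by 1.25 from Rad51b/Pdgfc to Foxp2/Cntn3 spermatids (SE 0.21) and rose by 3.92 to Kcnb2/Dscaml1 spermatids (SE 0.20, adjusted p 8.90e-27). In the other order of the round spermatid classes it fell by 1.5 from Cadm2/Spef2 to Foxp2/Cntn3 nuclei (SE 0.20) and then rose by 1.25 and by 2.66 (SE 0.19), so the low point stood in either order. Epc1 fell by 1.06 again in Ung low-RNA spermatids (SE 0.20). A smaller rise by 0.50 from early prophase to Wee2/Pls1 spermatocytes (SE 0.20, adjusted p 0.0359) was lost with totals alone (0.25), without a filter on low counts, with the gates raised by 2 UMIs and without either Dhx37-/- library.

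Epc1 levels in somatic nuclei were in the range of its high germ classes. Macrophage nuclei held 214, 206, 204 and 234 CPM, peritubular myoid nuclei 207 CPM ± 45.3, fibroblast nuclei 183 CPM ± 14.9, Leydig nuclei 171 CPM ± 17 and Sertoli nuclei 163 CPM ± 20.1. Free RNA held only 61.3 CPM ± 7.95 of Epc1 and was ascribed 2.92% to 6.42% of these levels on average.

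Kdm3a (ENSMUSG00000053470), the demethylase known for its part in switching on transition protein and protamine genes, passed in 1 of the 8 steps. It rose by 1.52 log2 units from spermatogonia to early prophase (SE 0.23, adjusted p 5.81e-07). The levels behind it were 97.2, 83.4, 91.2 and 85.6 CPM in spermatogonia and 208, 192, 249 and 278 CPM in early prophase. From Wee2/Pls1 spermatocytes, at 212 CPM ± 20.4, it declined without a called step to 85.4 CPM ± 26.9 in Ung low-RNA spermatids. Somatic means outside T cells lay between 77.7 and 118 CPM.

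**Figure D3:**
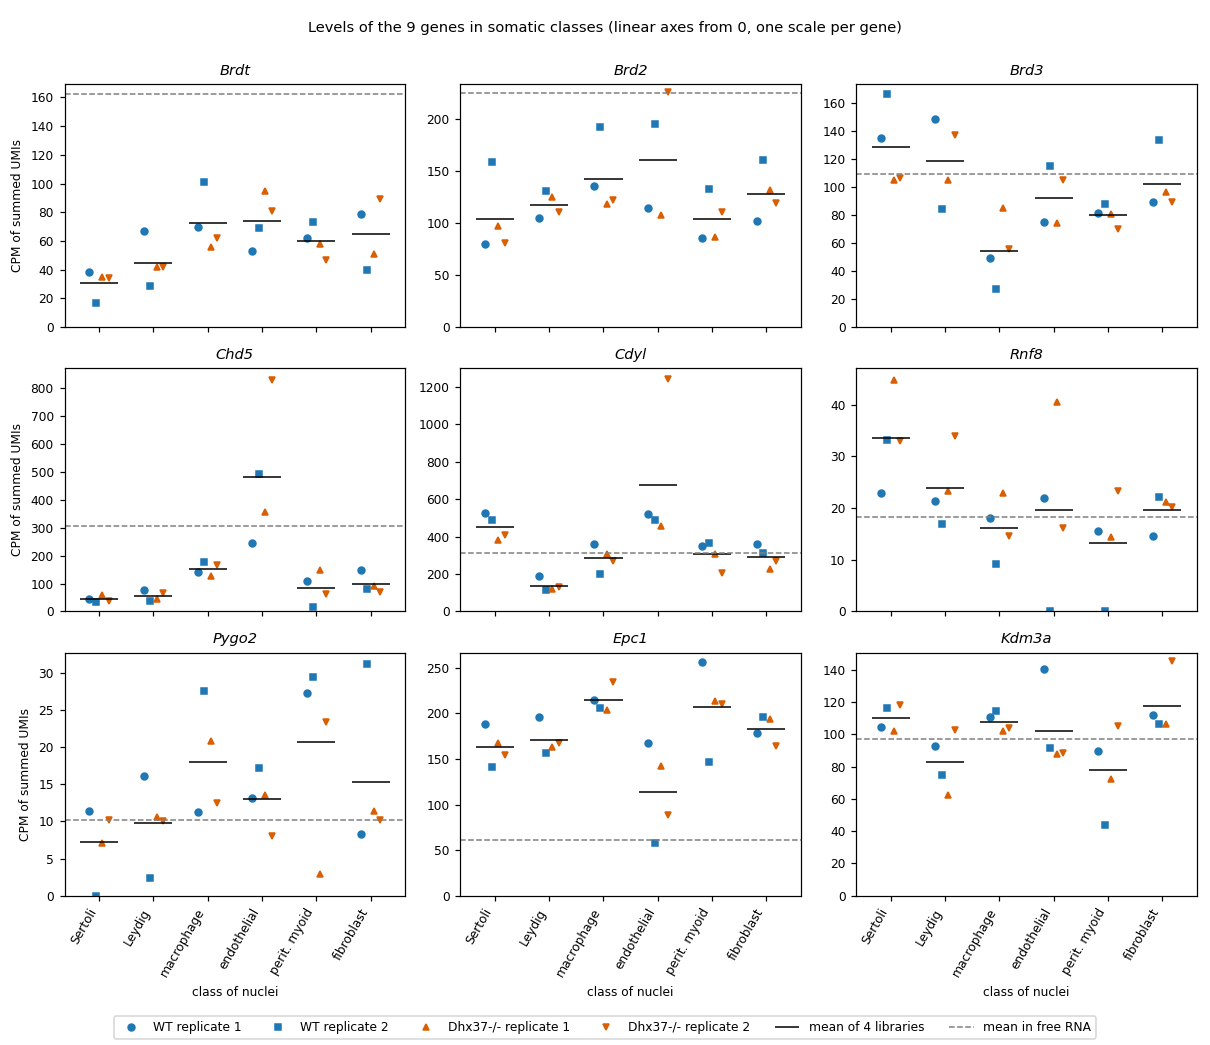
CPM of the 9 genes (vertical axes, linear from 0) in 6 somatic classes (horizontal axis), with 1 point per library coloured by genotype, a bar at the mean of the 4 libraries and a dashed line at the mean of free RNA. The mean of Epc1 stands above free RNA in each class, that of Cdyl in Sertoli and endothelial nuclei, and Brdt and Chd5 lie below free RNA in Sertoli and Leydig nuclei.

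Placing the 13 classes with at least 20 nuclei per library in the order of a member's CPM, 12 pairs of neighbours could be compared for each gene. A pair was counted where the edgeR adjusted p was under 0.05 and the fitted fold kept the CPM order. These counts were 5 of 12 pairs for Brd3 and Cdyl, 4 for Chd5 and Epc1, 3 for Brdt and Kdm3a, 2 for Brd2 and Pygo2 and 1 for Rnf8. Pairs that passed against the CPM order were not counted. For Brd3 they were spermatogonia with Kcnb2/Dscaml1 spermatids and early prophase with Cadm2/Spef2 nuclei. For Brdt it was spermatogonia with Rad51b/Pdgfc spermatids. For Kdm3a they were endothelial with Kcnb2/Dscaml1, spermatogonia with Fmo5/Ppm1l and macrophage with Foxp2/Cntn3 nuclei. In either direction 9.71% to 79% of all genes differed between the pairs of classes. The top of the order was clear for Rnf8, with Wee2/Pls1 spermatocytes above early prophase. It was also clear for Brd2, with Rad51b/Pdgfc spermatids above spermatogonia, where 68% of all genes differed. For Pygo2, Cadm2/Spef2 nuclei lay above spermatogonia, where 58% of all genes differed. Its smaller fitted gap to Wee2/Pls1 spermatocytes (0.73, SE 0.30) was lost under the alternatives named with Pygo2 above, so this top is less clear. For Brd3, Fmo5/Ppm1l lay above Ung low-RNA spermatids by edgeR (adjusted p 0.0428), but that step was lost under the alternatives named with Brd3 above. The top was shared for Brdt and Kdm3a by early prophase and Wee2/Pls1 spermatocytes, which did not differ past the threshold (adjusted p 0.877 and 0.738 by edgeR). For Brdt this pools the genotypes, with means of 149 and 282 CPM in WT against 475 and 282 CPM in Dhx37-/- libraries. For Chd5 the top was shared by Kcnb2/Dscaml1, Fmo5/Ppm1l and Rad51b/Pdgfc spermatids. Rad51b/Pdgfc, Kcnb2/Dscaml1 and Fmo5/Ppm1l spermatids shared it for Cdyl, though the first and the last of these were not compared directly. For Epc1, macrophages over Fmo5/Ppm1l spermatids (-0.33, SE 0.19) and these over Kcnb2/Dscaml1 spermatids (-0.22, SE 0.17) did not pass. Both fitted folds ran against the CPM order. Macrophages were not compared with Kcnb2/Dscaml1 spermatids directly, so the top for Epc1 was not settled.

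Averaged over the germ classes and set against the Leydig, macrophage, endothelial and fibroblast classes, 7 of the 9 members passed, beside 74.1% of all genes. Sertoli and peritubular myoid nuclei were not part of this contrast. Brdt was higher in germ nuclei by 1.00 log2 units (SE 0.13), Brd3 by 0.63 (SE 0.10), Chd5 by 1.41 (SE 0.11), Cdyl by 0.74 (SE 0.10) and Kdm3a by 0.37 (SE 0.09). Pygo2 was lower by 0.95 (SE 0.25) and Epc1 by 0.80 (SE 0.09). The median of all genes was 0.28 under TMM and -0.07 under DESeq2 size factors, and 57.3%, 44.6% and 52.1% of called genes were higher in germ nuclei under TMM, DESeq2 size factors and totals alone. The difference of Kdm3a came to 0.02 under DESeq2 size factors and in DESeq2 and was lost in both, as it was without a filter on low counts, without the upper limit on genes and with the gates raised, while the other 6 kept their direction and call under all alternatives.

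Between genotypes, members were tested in 13 classes with at least 20 nuclei in each library and in 2 further classes, Sertoli and peritubular myoid, with 15 to 19 nuclei in WT replicate 2, which were added after the data had been seen. Of 119 tests of a member in a class, 1 passed the threshold. This was Brdt in early prophase, where 14.8% of the 9596 genes tested were called, 5.67% higher and 9.11% lower in Dhx37-/- libraries. Brdt gave 22 and 20 UMIs in WT replicates 1 and 2 and 337 and 912 UMIs in Dhx37-/- replicates 1 and 2. As levels these were 169.5 and 128 CPM against 454 and 496 CPM, so the genotypes did not overlap, a pattern that 32.3% of all genes showed in this direction. The difference was 1.68 log2 units (SE 0.31, adjusted p 0.0108), and after thinning 10.5% and 8.89% of WT nuclei against 28.5% and 30.3% of Dhx37-/- nuclei held a Brdt UMI. Without Dhx37-/- replicate 2 the difference was 1.62 and no longer passed, in a fit with 1 Dhx37-/- library. Under the other alternatives, some of which also leave 1 library in a genotype, it ran from 1.52 to 2.12 with adjusted p up to 0.0495.

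**Figure D4:**
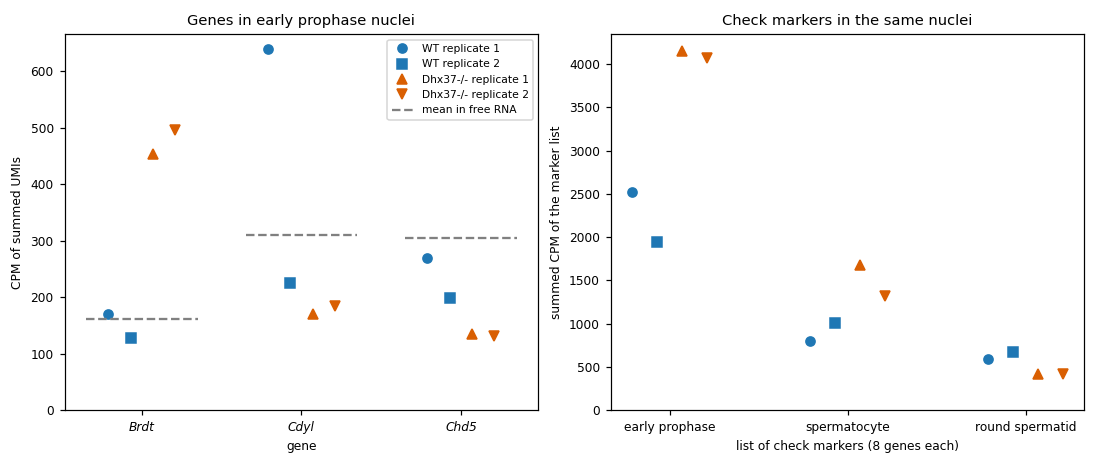
CPM of Brdt, Cdyl and Chd5 (left) and summed CPM of 3 lists of 8 stage markers (right) in early prophase nuclei (vertical axes, linear from 0), with 1 point per library; dashed lines give the mean of free RNA. Brdt and the early prophase list are higher in both Dhx37-/- libraries, and round spermatid markers are lower in them.

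Marker sums of several stages also differed between the same libraries. Early prophase check markers, 8 synaptonemal complex and meiotic genes that were not used for the gate, summed to 2520 and 1946 CPM in WT and 4157 and 4071 CPM in Dhx37-/- samples. Spermatocyte markers summed to 801 and 1005 against 1675 and 1317 CPM, and elongating spermatid markers to 5093 and 5582 against 7687 and 6452 CPM. Round spermatid markers went the other way, with 586 and 672 against 414 and 416 CPM. Elongating spermatid markers were higher in both Dhx37-/- libraries in each class tested between genotypes. In Sertoli nuclei, for example, they summed to 1471 and 1971 CPM in WT against 4367 and 2754 CPM in Dhx37-/- samples. The part of all these marker lists in the Brdt difference was not tested.

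The change of Brdt from spermatogonia to early prophase was larger in Dhx37-/- than in WT libraries by 2.18 log2 units (SE 0.49, adjusted p 0.0391 by edgeR). Such a difference was called for 0.118% of all genes. Brdt went from a mean of 146 to 149 CPM in WT and from 111 to 475 CPM in Dhx37-/- libraries. Its change from early prophase to Wee2/Pls1 spermatocytes was lower in Dhx37-/- libraries by 1.82, at -1.82 (SE 0.39, adjusted p 0.0111), beside 0.855% of all genes. Neither difference passed when WT replicate 1 or either Dhx37-/- library was left out, and the first did not pass without WT replicate 2 either. In Wee2/Pls1 spermatocytes themselves Brdt differed by 0.01 between genotypes (SE 0.27). Brdt passed in no other class.

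Cdyl and Chd5 went the other way in early prophase without passing. Cdyl measured 639.5 and 224 CPM in WT and 169.6 and 184 CPM in Dhx37-/- samples, a fitted difference of -1.27 (SE 0.40, adjusted p 0.0502). Without WT replicate 1, the highest library, it was -0.20, and without WT replicate 2 it was -1.81. Each of these fits holds 1 WT library and has no spread within WT. Chd5 measured 269.7 and 198 CPM against 135 and 132 CPM, a difference of -0.81 (SE 0.28, adjusted p 0.0714). Both genes were lower in each Dhx37-/- library, as 28.8% of all genes were. With doublets removed both passed, at -1.57 for Cdyl (adjusted p 0.0214) and -1.10 for Chd5 (adjusted p 0.0251).

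In 6 germ classes from Cadm2/Spef2 onwards, both Dhx37-/- libraries held more Chd5 than both WT libraries, and none of these differences passed. In Kcnb2/Dscaml1 spermatids the WT libraries measured 575 and 676 CPM and the Dhx37-/- libraries 936 and 894 CPM, a difference of 0.53 log2 units (SE 0.20, adjusted p 0.526). In Fmo5/Ppm1l spermatids they measured 602 and 637 against 967 and 852 CPM, also 0.53 (SE 0.21, adjusted p 0.560). The gap was 0.41 in Cadm2/Spef2, 0.34 in Rad51b/Pdgfc, 0.46 in Foxp2/Cntn3 and 0.31 in Ung low-RNA nuclei. A gene whose Dhx37-/- libraries both lay above the WT libraries was common, at 22.9% of all genes in Cadm2/Spef2, 23.3% in Rad51b/Pdgfc, 24.3% in Foxp2/Cntn3, 22.8% in Kcnb2/Dscaml1, 23.2% in Fmo5/Ppm1l and 23.2% in Ung low-RNA nuclei. The 6 classes share their libraries and so are not independent. Free RNA ran the other way, with 400.2 and 314 CPM of Chd5 in the WT libraries against 226 and 282 CPM. Without WT replicate 1 the gap was 0.34, 0.40 and 0.46 in Foxp2/Cntn3, Kcnb2/Dscaml1 and Fmo5/Ppm1l spermatids. Without WT replicate 2 it was 0.44 to 0.66 in 5 of the 6 classes. Each of these fits holds 1 WT library, with no spread within WT, so their calls were not treated as results.

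**Figure D5:**
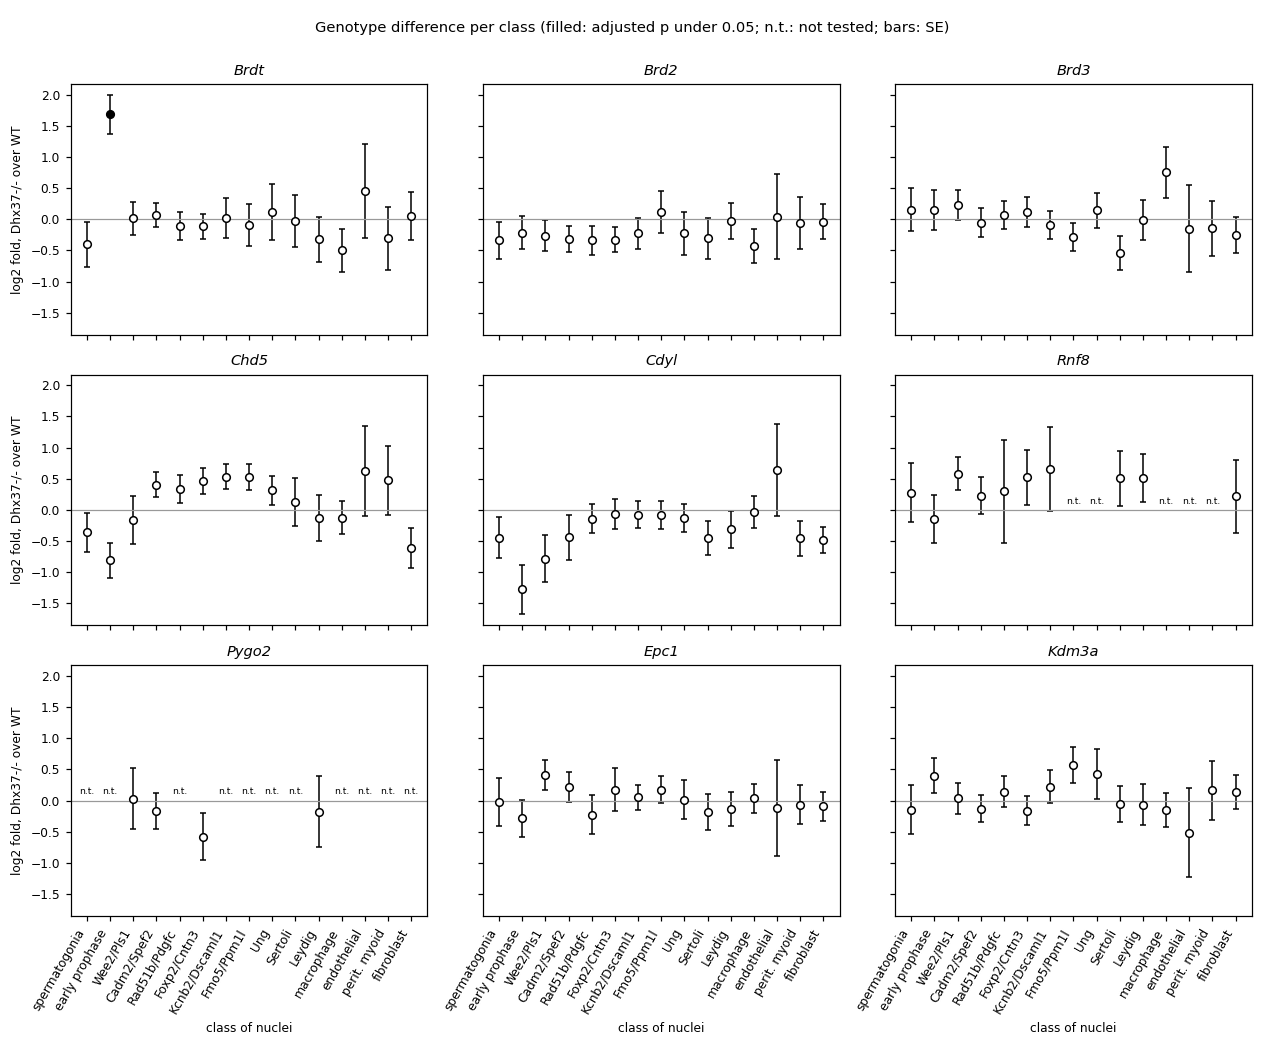
Fitted log2 fold of Dhx37-/- over WT for each member (1 panel each, vertical axes) in 15 classes (horizontal axis), with bars of 1 SE, filled points where the adjusted p is under 0.05 and n.t. where a gene was too sparse to test. Brdt in early prophase is the filled point at 1.68, and Chd5 lies above 0 in the 6 classes from Cadm2/Spef2 to Ung low-RNA spermatids.

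Outside early prophase the members' differences ran from -0.78 to 0.75 log2 units and none passed with edgeR or DESeq2. An unadjusted p under 0.05 was found in 4 of these tests, Rnf8 in Wee2/Pls1 spermatocytes (0.58, SE 0.26, adjusted p 0.355), Chd5 in Kcnb2/Dscaml1 and Fmo5/Ppm1l spermatids, and Cdyl in fibroblasts (-0.48, SE 0.21, adjusted p 0.558). Among all genes the calls in these classes were 0% in Wee2/Pls1, Cadm2/Spef2, Foxp2/Cntn3, Kcnb2/Dscaml1 and Fmo5/Ppm1l nuclei, 0.00677% in Rad51b/Pdgfc, 0.0138% in Ung low-RNA, 0.339% in spermatogonia, 0.0431% in fibroblast and 0.992% in macrophage nuclei, and 0% in Leydig, endothelial, Sertoli and peritubular myoid nuclei. By unadjusted p under 0.05 the classes at 0% had between 41 and 1556 genes, and DESeq2 called 0 to 19 genes in them. In Sertoli nuclei, where Amh-Cre is active, the 8 members tested differed by -0.54 to 0.51. The nearest to the threshold there was Brd3, at 135 and 166 CPM in WT and 105 and 106 CPM in Dhx37-/- samples (-0.54, SE 0.27, adjusted p 0.667). Cdyl was also lower in both Dhx37-/- libraries there (-0.45, SE 0.27, adjusted p 0.705), a pattern that 14.3% of all genes showed in Sertoli nuclei.

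Other genes of the same pathways were taken from 9 lists by their role. The list of bromodomain readers is given by single genes in Dhx37-/- early prophase nuclei, with no count over the list. Brd7, a subunit of SWI/SNF complexes, was higher by 3.31 (SE 0.53, adjusted p 0.00823) and Brd8, a subunit of NuA4/TIP60, by 1.37 (SE 0.30, adjusted p 0.0156). Brwd3 was lower by 2.50, at -2.50 (SE 0.49, adjusted p 0.0117). Of all genes tested in early prophase, 5.67% were higher and 9.11% lower. Among CHD remodelers and SWI/SNF ATPases, 2 of 11 were higher, Chd9 by 3.16 (SE 0.50) and Chd6 by 1.11 (SE 0.33), and none lower. The histone methylation list had 2 of 10 higher, the H3 lysine methyltransferase Setd2 by 1.12 (SE 0.32) and the demethylase Kdm5b by 0.94 (SE 0.28). Of 3 genes tested on the list of histone genes, H3f3b was higher by 0.98 (SE 0.28). No gene of the NuA4/TIP60, ubiquitination, acetylation, PYGO partner or transition protein lists passed in early prophase, and no gene of any list passed in another class. These values share the early prophase sums, and their marker differences, with Brdt.

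Across stages, the genes with the largest changes of each list are given here. From Foxp2/Cntn3 to Kcnb2/Dscaml1 spermatids all 4 transition proteins and protamines, which also served as elongating spermatid check markers, were higher (median 2.30 against 0.03 over all genes), Tnp2 by 2.49 (SE 0.17) and Tnp1 by 2.46 (SE 0.17). Of all genes 65.8% changed at that step, in either direction. Of 11 CHD and SWI/SNF genes 6 were higher and 4 lower, led by Chd7 with a rise of 5.23 (SE 0.28). Of 11 other NuA4/TIP60 genes, 2 were higher and 3 lower, with Epc2, the paralog of Epc1, lower by 4.67, at -4.67 (SE 0.23), and Mrgbp higher by 3.50 (SE 0.25). Epc1 rose by 3.92 at this step.

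At the same step, where 65.8% of all genes changed, 3 of 10 genes of the acetylation list were higher and 5 lower. Among them were the acetyltransferase Kat2b at -3.92 (SE 0.25) and Cdyl2, the paralog of Cdyl, at -3.08 (SE 0.23). Of the ubiquitination and damage list 4 of 9 were higher and 2 lower, with Herc2, a ligase that works with Rnf8, at -3.47 (SE 0.24). Of 4 PYGO partners 1 was higher and 2 lower, with the beta-catenin cofactor Bcl9l at 3.97 (SE 0.43). Of 5 genes tested on the list of histone genes 2 were higher, led by the spermatid linker histone H1f7 at 1.92 (SE 0.18), and none lower.

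From Cadm2/Spef2 to Rad51b/Pdgfc nuclei, where Chd5 and Cdyl rose and Rnf8 and Pygo2 fell, the bromodomain reader Brd8 was lower, at -2.81 (SE 0.24). Rnf168, the ligase that acts after Rnf8 at DNA breaks, rose by 2.69 (SE 0.19) in the step in which Rnf8 fell by 2.03. Of all genes 63.7% changed at this step, in either direction. Of the 9 genes of the Rnf168 list 4 were higher and 2 lower. Of 10 histone methylation genes 2 were higher and 5 lower, with Kdm3b, the paralog of Kdm3a, higher by 2.16 (SE 0.19) and the testis demethylase Kdm4d at -3.39 (SE 0.26). Chd6 rose by 3.16 (SE 0.28) and the PYGO partner Bcl9 by 2.56 (SE 0.23). Earlier, from early prophase to Wee2/Pls1 spermatocytes, the linker histone H1f1 fell by 1.89 (SE 0.79, adjusted p 0.0468).

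Genes with the pattern most like each member were found by Pearson's r of log2(CPM + 1) over the 52 sums of 4 libraries and 13 classes, among the 18704 other genes tested. The sums share libraries and free RNA, so r is a description. Chd5 was followed most closely by Tsks (0.98), a substrate of the testis-specific serine kinases, and by 1700093K21Rik and Pnmal2 (both 0.97). Cdyl was closest to 4930523C07Rik, Tmem144 and Eif4g1 (each 0.96), Epc1 to Socs5 and Fnbp4 (both 0.91) and Ncoa6 (0.88), and Rnf8 to Pus1 and Cops3 (both 0.89) and Trim33 (0.88). Brdt was closest to Senp2 (0.86), Bbof1 and Tex9 (both 0.84), Brd2 to Upf2 (0.86), Btrc (0.85) and Gm16163 (0.84), Pygo2 to Zdhhc1 (0.85), Mtf2 (0.81) and Numb (0.80), and Brd3 to Gm11508 (0.83), Nat10 (0.82) and Prr14 (0.80). Kdm3a had the loosest companions, Nipbl (0.77), Irak1bp1 (0.76) and Slc2a3 (0.75). Among the members themselves the closest pair was Chd5 and Cdyl (0.86), followed by Brdt and Kdm3a (0.72), while Rnf8 ran against Cdyl (-0.73) and Chd5 (-0.72).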

How the data were processed

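Counts were deposited by the authors as unfiltered matrices of raw UMI counts per gene and barcode, 1 per library. The matrix headers name Cell Ranger 7.2.0, and the submitters' processing notes list bcl2fastq, Cell Ranger and Seurat 3.1.1 with GRCm38/mm10, whereas the study's methods name another build; no coordinates were used. Whether intronic reads were counted is not given in the sources used here. No sequences are printed.

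Nuclei were called as barcodes above a count limit (99th percentile divided by 10 at 8000 expected nuclei) or differing from free RNA (barcode ranks 45000 to 90000, 10000 simulations, FDR 0.01), and limited to 500 to 5000 genes, 500 UMIs or more and no more than 25% of UMIs from mitochondria. Doublets were called (4.38% of nuclei) and kept, with their removal as an alternative. Classes were gated on UMIs of marker genes, with limits set after the marker counts had been seen. Markers were kept if they were also coherent among themselves. The germ gates from Cadm2/Spef2 to Ung low-RNA had no such check. Free RNA shares were estimated for somatic classes only, taking all their Tnp1, Tnp2, Prm1 and Prm2 UMIs as free RNA. Raw UMIs were summed per library and class, and differences were tested with edgeR 4.0.16 (quasi-likelihood, TMM, filterByExpr; R 4.3.3) over all genes with Benjamini-Hochberg adjustment at 0.05, between genotypes within a class, between classes with library as a block, and for the difference between genotypes in a step. DESeq2 1.42.0 was an alternative. Classes needed 20 nuclei per library, or 15 for Sertoli and peritubular myoid, which were added after seeing the data. Shares of nuclei with a UMI were taken after thinning to 1000 UMIs. Nuclei were handled with scanpy 1.11.5 and anndata 0.12.19 in Python 3.11.15 (pandas 2.3.3, scipy 1.17.1, numpy 2.4.6), figures were drawn with matplotlib 3.10.9, and the fits were tested on simulated data.

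The text names all 9 members in every class, the 3 genes closest in pattern to each, and from the lists every gene past the threshold between genotypes and at most 2 per list for stages; some values of the bromodomain reader list are not reported here. The members and lists were chosen with earlier results of these data known. The labels give replicate numbers 1 and 2 in each genotype with no shared animal, litter or day, so the numbers were not taken to pair libraries.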

Additional observations from a re-analysis of the deposited data

Results flagged for a closer look

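Brdt was the member whose change between stages differed between genotypes by a test of that difference. From spermatogonia to early prophase its log2 change was larger in Dhx37-/- than in WT libraries by 2.18 (SE 0.49, adjusted p 0.0391 by edgeR), and from early prophase to Wee2/Pls1 spermatocytes the difference was -1.82 (SE 0.39, adjusted p 0.0111). Both rest on the same early prophase sums, which held 22 and 20 Brdt UMIs in the WT libraries against 337 and 912 in the Dhx37-/- libraries. Markers of early prophase summed to 2520 and 1946 CPM against 4157 and 4071 CPM in those sums, and their part in the Brdt difference was not tested.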

How the results depend on the processing

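Between genotypes the count of members called in all classes was 1. It was 2 under DESeq2 size factors, without a filter on low counts, without the upper limit on genes per nucleus and with no scaling beyond totals, and 3 with doublets removed, with the same counts in early prophase alone. Leaving out 1 library gave 0 to 13 calls in all (7 without WT replicate 1, 13 without WT replicate 2, 0 without Dhx37-/- replicate 2), 0 to 3 in early prophase, 0 to 2 in each of the Cadm2/Spef2, Rad51b/Pdgfc and Kcnb2/Dscaml1 classes and 0 to 1 in each of the spermatogonia, Wee2/Pls1, Foxp2/Cntn3, Fmo5/Ppm1l and fibroblast classes. These fits take a lone library to vary like the other genotype, and the added calls were not treated as results. With the replicate number as a block the count was 1, the same, and with the numbers crossed it was 2; same-numbered libraries correlated at -0.49 to 0.56 over the classes. Across stages, Wee2/Pls1 to Cadm2/Spef2 gave 3 to 5 calls when 1 library was left out, Kcnb2/Dscaml1 to Fmo5/Ppm1l gave 1 instead of 0 under DESeq2 size factors, DESeq2 and totals alone, and Fmo5/Ppm1l to Ung low-RNA gave 5 instead of 3 with the gates raised by 2 UMIs and 1 with totals alone. The 2 stage differences of Brdt between genotypes became 1 under DESeq2 size factors, with doublets removed, with gates raised and with totals alone, and 0 to 1 without 1 library. Epc1 in macrophages moved from 215 CPM to 231 CPM with doublets removed and to 230.8 CPM with gates raised. No reported result changed direction under these alternatives. The cause of these changes was not tested. The early prophase sums of the WT libraries (129784 and 156215 UMIs) and the sparse counts of Pygo2 and Rnf8 set the limits of depth.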
